A study of Mus musculus with 8 samples.

Results

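A set of 10 genes of MHC class I antigen presentation was followed in single cells of mouse cortex in which a laminin of the vessel wall had been deleted. The genes were H2-K1, H2-D1, H2-Q4, H2-Q6, H2-Q7, H2-T23, B2m, Tap1, Tapbp and Psmb8, which are 10 of the 31053 gene IDs in the files, and all 10 were found by symbol. They were chosen on earlier values of these libraries, the fold changes between knockout and wild-type (WT) cells, so the knockout contrasts below are descriptions and carry no p-value for these genes. The study had 4 groups of cortex samples from mice aged 8 weeks: Lama4-/- mice, which lack the laminin alpha 4 chain in all cells, with their own WT group, and Tek-Cre:Lama5-/- mice with a separate WT group. Tek-Cre is a recombinase under the Tek (Tie2) promoter, which is active in endothelial cells and in part of the blood cell lineage, so the deletion is not limited by design to the vessel wall. The brains of 3 mice were pooled per group and 2 samples were labelled in each, so the spread between replicates does not cover the spread between animals. The 2 Lama4-/- samples held identical counts and were used as 1 library, which left 7 distinct libraries of the 8 samples.

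MHC class I molecules show peptides from inside the cell to CD8 T cells. A heavy chain pairs with the light chain beta 2 microglobulin, and the pair takes up its peptide in the endoplasmic reticulum. Peptides are cut by the proteasome, whose interferon-inducible form is the immunoproteasome, and are carried in by the TAP transporter. H2-K1 and H2-D1 encode the classical, highly variable heavy chains. H2-Q4, H2-Q6, H2-Q7 and H2-T23 encode non-classical ones, of which H2-Q7 belongs to the Qa-2 antigens and H2-T23 is Qa-1, a ligand of NK cell receptors. B2m encodes the light chain, Tap1 a subunit of the transporter, Tapbp the loading factor tapasin and Psmb8 a catalytic subunit of the immunoproteasome. Brain endothelial cells and microglia are known to carry class I at rest, and neurons and oligodendrocytes to carry little.

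On GRCm38 (GENCODE M21) all but B2m lie on chromosome 17, in the H2 complex, and all 10 are annotated as protein coding. Tapbp spans chr17:33915899-33929292, H2-K1 chr17:33996017-34000347, Tap1 chr17:34187553-34197225, Psmb8 chr17:34197721-34201454 and H2-D1 chr17:35262730-35267499. H2-Q4 spans chr17:35379617-35385290, H2-Q6 chr17:35424850-35430055, H2-Q7 chr17:35439155-35443773 and H2-T23 chr17:36029773-36032855. B2m lies at chr2:122147686-122153083. The 250 bases before the start of the neighbouring H2-Q7, H2-Q6 and H2-Q4 genes are shown because the first 2 differed most between the Lama5 knockout and its WT and the third, beside them, differed little. They are from RefSeq on GRCm38.p6, 5′ to 3′ on the plus strand, at chr17:35438905-35439154, chr17:35424600-35424849 and chr17:35379367-35379616 in this order, and the capitals mark matches to the NF-kB consensus on either strand.
H2-Q7: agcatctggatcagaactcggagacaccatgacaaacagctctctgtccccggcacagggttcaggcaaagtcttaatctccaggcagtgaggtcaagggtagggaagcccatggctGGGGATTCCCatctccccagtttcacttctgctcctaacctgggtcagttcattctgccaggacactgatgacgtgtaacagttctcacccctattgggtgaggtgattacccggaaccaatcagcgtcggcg
H2-Q6: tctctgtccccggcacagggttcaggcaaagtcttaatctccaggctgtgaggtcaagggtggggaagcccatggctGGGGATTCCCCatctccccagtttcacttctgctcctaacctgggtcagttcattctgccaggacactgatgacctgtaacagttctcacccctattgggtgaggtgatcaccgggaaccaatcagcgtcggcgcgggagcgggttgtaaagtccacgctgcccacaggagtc
H2-Q4: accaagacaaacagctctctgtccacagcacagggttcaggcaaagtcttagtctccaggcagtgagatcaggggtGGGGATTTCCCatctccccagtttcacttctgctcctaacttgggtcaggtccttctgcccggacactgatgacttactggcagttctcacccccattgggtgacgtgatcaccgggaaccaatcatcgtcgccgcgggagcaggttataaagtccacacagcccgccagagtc
All 3 windows held the NF-kB consensus, once in H2-Q7 and in 2 overlapping positions in H2-Q6 and H2-Q4, against 3.9% of 32851 RefSeq promoters of the same length. The first match began 133 bases before the start of H2-Q7, 173 before H2-Q6 and 174 before H2-Q4. The NF-kB consensus was not particular to these 3 genes. It also matched H2-K1, H2-D1 and B2m, but not H2-T23, Tap1, Tapbp or Psmb8. The interferon-stimulated response element (ISRE) consensus, searched on both strands, was in 2.98% of promoters, and in this list matched only B2m and H2-T23. The gamma-activated sequence TTCNNNGAA (GAS), found in 7.02% of promoters, matched only Psmb8. A match is a run of letters, not a bound site, and no match says only that these letters are not in the window. In an alignment of the windows, H2-Q6 was identical to H2-Q4 at 209 of 266 aligned positions (78.6%). It was identical to H2-Q7 at 205 of 290 (70.7%). The H2-Q7 window is shifted, with its match 133 bases before the start against 173 in H2-Q6. Overhanging ends count as positions that differ, so these percentages do not rank how alike the promoters are.

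The class I heavy chains are related in sequence, which bears on how reads are assigned. Their longest coding transcripts were from 50.6% (H2-Q6 and H2-T23) to 80.4% (H2-K1 and H2-Q7) identical. Of the 50-base words in the longest coding transcript of H2-Q7, 31.5% were also present in another H2 gene, 19.3% in H2-Q6 alone. The share was 27% for H2-Q6, 20.6% for H2-T23, 16.5% for H2-Q4, 12% for H2-D1 and 8.79% for H2-K1. In the last 300 bases of the transcripts H2-Q7 was 51.5% identical to H2-Q6 and 74.6% to H2-K1. These stretches depend on the annotated transcript ends, so they do not show whether reads were shared. How reads that fit several genes were counted is not given in the sources used here, so values of H2-Q6 and H2-Q7 in particular may share reads.

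The files held 56961 cell barcodes in the 7 libraries, with 35479306 to 48314458 UMIs (unique molecular identifiers, each counting 1 captured RNA molecule) per library, and 47239 cells were kept. Pairs of libraries shared 6 to 27 barcodes. Cells were clustered without the 10 genes, and clusters were named from marker genes. The main endothelial-like clusters (20628 cells in the class) had all 9 endothelial markers, and the larger microglia-like clusters (7583 cells in the class) all 7 microglial markers. A further 3 clusters with all 9 endothelial markers (6069 cells) stayed without a class name, since genes of another class, such as Stmn2, were among their leading genes. Levels are given as counts-per-million (CPM), the UMIs of a gene scaled to the total of its class in a library, with totals scaled within each experiment for the 5 compared classes. In endothelial-like cells Lama4 was at 52.6 and 47.3 CPM in WT and 0.084 in the Lama4-/- library. Lama5 was at 36 and 34.1 CPM in its WT and at 20.8 and 21.6 in Tek-Cre:Lama5-/-; the deleted part of the gene is not given in the labels, so 3′ reads are an incomplete check.

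The summed level of the class I genes was highest in T or NK-like cells and lowest in oligodendrocyte-like cells. The sum of the 10 genes had a median of 7278 CPM over 7 libraries (6328 to 11036) in 174 T or NK-like cells, 5024 (3701 to 5986) in 159 B-like cells and 4869 (4139 to 5687) in 178 monocyte or dendritic-like cells. It was 4558 (4254 to 5883) in perivascular macrophage-like cells, 4470 (4214 to 5648) in the unnamed endothelial-marked clusters, 3668 (3341 to 3867) in microglia-like and 3507 (3044 to 4535) in endothelial-like cells. Neutrophil-like cells, 84 in all and 1 to 32 per library, were at 2898 (1640 to 4670), a range that overlapped those of B-like, microglia-like and endothelial-like cells. The ranges from B-like cells to the unnamed endothelial-marked clusters overlapped one another, and so did those of microglia-like and endothelial-like cells. The microglia-like range did not overlap those of the unnamed endothelial-marked clusters or the perivascular macrophage-like cells. Several rare classes held few cells in a library (8 to 44 B-like, 2 to 54 monocyte or dendritic-like). The supporting and glial classes were lower. Fibroblast-like cells were at 1548 (1082 to 1684), pericyte-like at 993 (820 to 1168), smooth muscle-like at 551 (502 to 698), astrocyte-like at 427 (310 to 565) and oligodendrocyte-like at 131 (119 to 233). The pericyte-like range overlapped the fibroblast-like one but not the smooth muscle-like one, and the smooth muscle-like and astrocyte-like ranges overlapped. Counts from 3′ ends carry no length scaling, so levels are compared within a gene or a fixed sum, not between genes.

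Each gene had its own balance between endothelial-like and microglia-like cells. B2m, the light chain, was at 935 to 1231 CPM (median 1069) in endothelial-like and 1556 to 1866 (1786) in microglia-like libraries, with no overlap. H2-D1 lay the other way, at 793 to 1381 (892) in endothelial-like and 510 to 728 (556) in microglia-like cells. H2-T23 was at 258 to 350 (273) in endothelial-like and 129 to 257 (145) in microglia-like cells, also without overlap. H2-K1 overlapped, with 598 to 1058 (714) and 563 to 853 (744). Psmb8 overlapped too, at 120 to 182 (145) and 123 to 250 (142). The classical and shared genes were still present in the supporting cells, for example B2m at 224 to 415 CPM in pericyte-like, 115 to 181 in smooth muscle-like and 73.5 to 151 in astrocyte-like cells.

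H2-Q7 was low outside immune and endothelial cells. It was at 1.35 to 19.3 CPM in pericyte-like, 0.558 to 1.39 in smooth muscle-like and 0 to 4.47 in astrocyte-like cells, and 7 UMIs in 4139 oligodendrocyte-like cells gave 0.226 CPM (exact Poisson 95% interval 0.0907 to 0.465, counting error only). Its highest level was in T or NK-like cells, at 1078 and 1107 CPM in the WT libraries of the Lama4 experiment, 1069 in Lama4-/-, 753 and 669 in WT of the Lama5 experiment, and 694 and 831 in Tek-Cre:Lama5-/-. The Poisson intervals of the last 4 libraries (18 to 30 cells each) overlapped, so no difference between knockout and WT was detectable there. H2-Q6 in these cells, pooled over libraries, was at 294 CPM (259 to 332), and B-like cells had 200 CPM of H2-Q7 (170 to 233) and 183 of H2-Q6 (155 to 216).

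**Figure D1:**
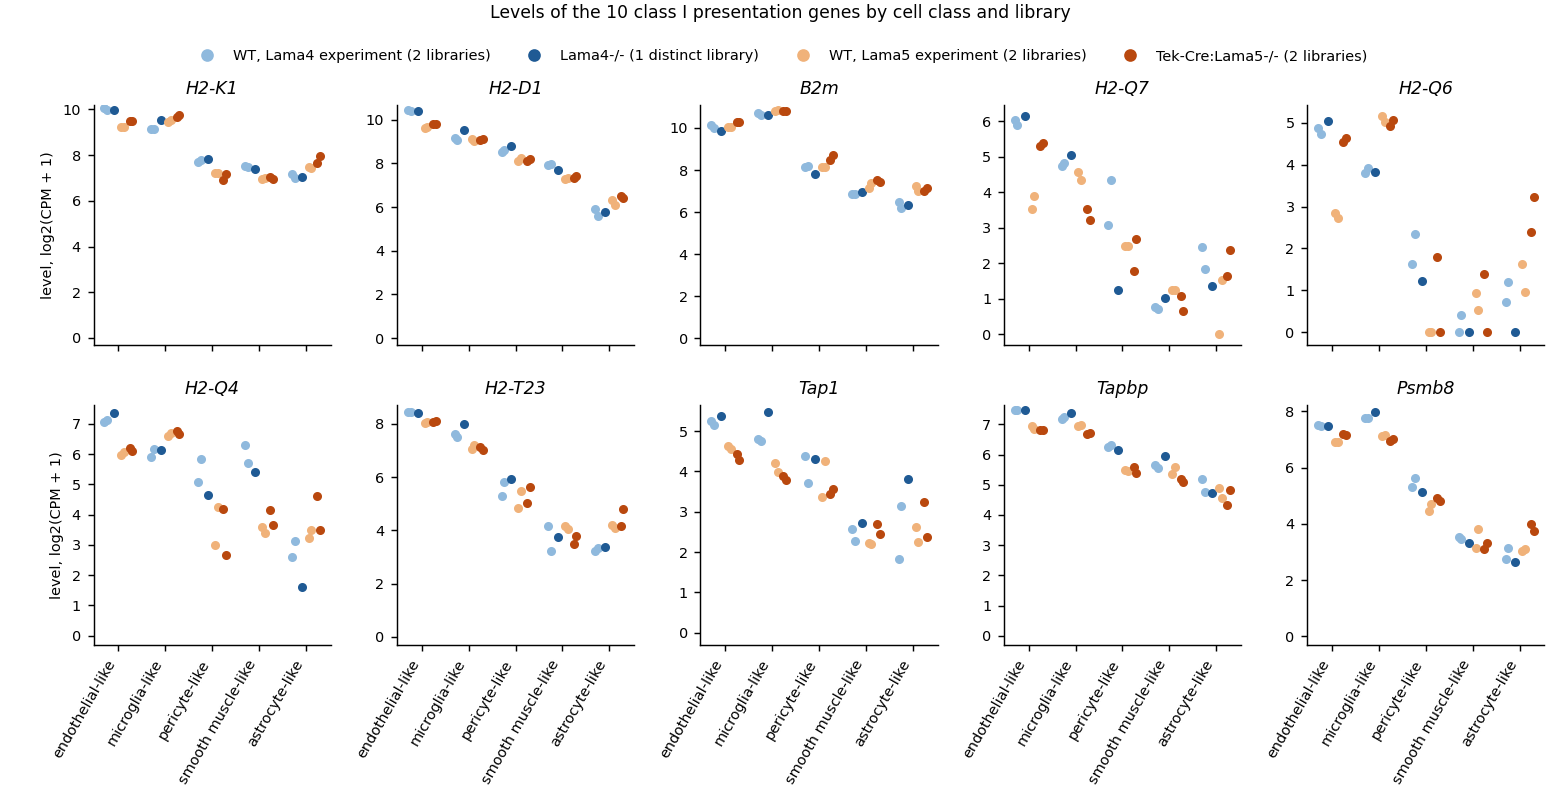
Level of each gene as log2(CPM + 1) on the vertical axis in the 5 compared cell classes, 1 point per library, coloured by group. H2-Q7 lies between 10.6 and 70.2 CPM in endothelial-like libraries and at or under 1.39 CPM in smooth muscle-like ones.

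In endothelial-like cells of Tek-Cre:Lama5-/- mice, the non-classical heavy chains H2-Q7 and H2-Q6 were several times higher than in their WT, and H2-K1, H2-D1, B2m and Psmb8 were higher by smaller amounts. H2-Q7 was at 10.6 and 13.8 CPM in the WT libraries and 38.6 and 40.5 in the knockout ones. Its fitted log2 fold change was 1.69 ± 0.0832 (SE, 2 against 2 libraries), or 3.24-fold. H2-Q6 was at 6.22 and 5.62 CPM in WT and at 22.4 and 23.9 in the knockout, a log2 fold change of 1.97 ± 0.112, or 3.91-fold. In both genes the knockout libraries stood far above the WT ones, and the replicates of a group lay nearer to each other than to the other group. H2-Q4, which lies beside them, was at 62.3 and 66.5 CPM in WT and 72.5 and 67.3 in the knockout (0.12 ± 0.0496), so 1 knockout library was barely above the higher WT one.

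The classical heavy chains moved less. H2-K1 was at 600 and 598 CPM in WT and 713 and 714 in the knockout, a log2 fold change of 0.25 ± 0.0203. H2-D1 was at 793 and 814 CPM and at 886 and 892 (0.15 ± 0.0195). In both genes the gap between groups was wider than the gap within a group. H2-T23 overlapped, with 258 and 268 CPM in WT and 265 and 273 in the knockout (0.03 ± 0.0269), and this small value turned to -0.04 with unscaled totals.

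The light chain and the immunoproteasome subunit were also higher in the knockout. B2m was at 1049 and 1069 CPM in WT and 1231 and 1223 in the knockout (0.22 ± 0.0186). Psmb8 was at 120 CPM in both WT libraries and at 145 and 144 in the knockout (0.28 ± 0.0356). The loading genes lay on the other side. Tap1 was at 23.8 and 22.4 CPM in WT and 20.5 and 18.5 in the knockout (-0.24 ± 0.0845), and Tapbp at 121 and 114 against 112 and 111 (-0.07 ± 0.0382). Both were lower in each knockout library than in each WT library, by little.

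By edgeR's quasi-likelihood test over all 12701 genes tested in this class, 7 of the 10 genes passed an adjusted p of 0.05, against 19.0% of all genes. H2-Q7, H2-Q6, H2-K1, B2m, H2-D1 and Psmb8 passed as higher, where 10.3% of all genes did, and Tap1 passed as lower, where 8.67% did. The list was chosen on this contrast, so nothing is read from these counts. The median log2 fold change was 0.18 over the 10 genes and -0.0039 over all genes. The call of Tap1 was lost in 7 of 15 alternative analyses, among them DESeq2 and those without Tek-Cre:Lama5-/- replicate 2 (-0.17) or without WT replicate 1 (-0.19), and that of H2-Q4 was gained in 7.

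**Figure D2:**
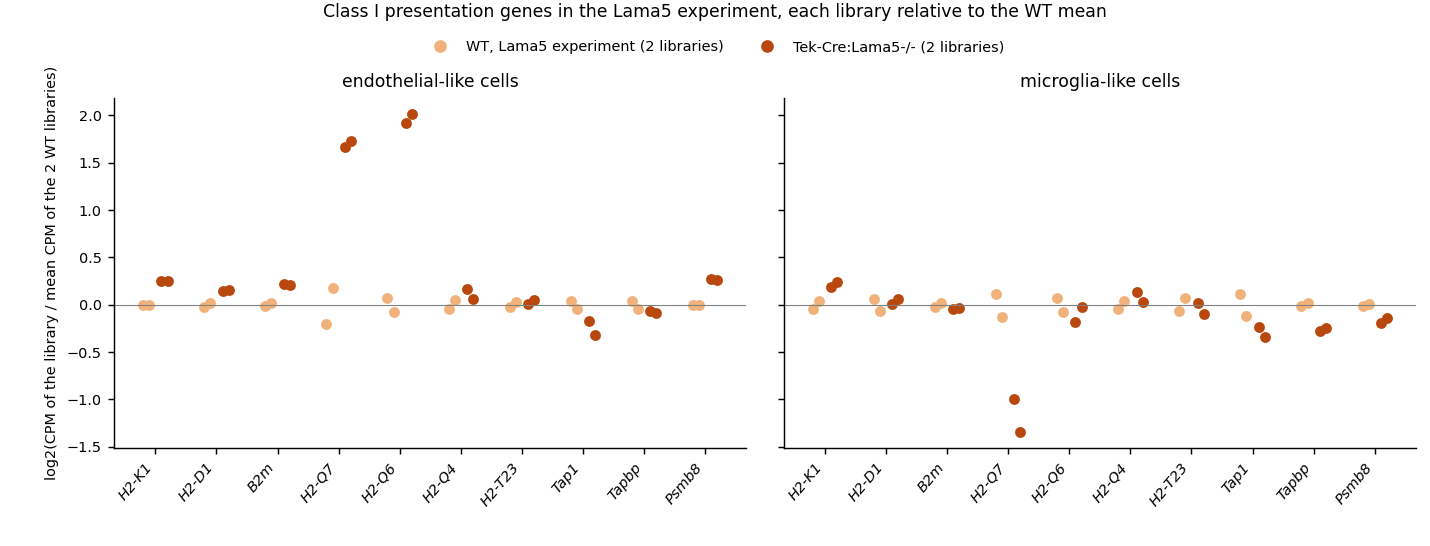
Each point is 1 library of the Lama5 experiment, as log2 of its CPM over the mean CPM of both WT libraries, for endothelial-like (left) and microglia-like cells (right). H2-Q7 lies above WT in endothelial-like and below it in microglia-like cells, while most other genes lie close to 0.

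Within the endothelial-like class the level of H2-Q7 depended strongly on the cluster, and the knockout libraries were above WT in each of the larger clusters. Cluster 5, led by Slc38a5, Fmo2 and Vwf, a gene known from larger vessels, held 22.8 and 28.5 CPM of H2-Q7 in WT and 73.8 and 78.2 in the knockout. Its exact Poisson 95% intervals did not overlap between groups, while those of cluster 4 did. Clusters 0 and 4, both led by Ctla2a, held little: 2.26 and 2.51 CPM in WT against 6.74 and 9.82 in the knockout for cluster 0, and 1.65 and 4.85 against 9 and 8.69 for cluster 4. In the 2 larger unnamed endothelial-marked clusters of this experiment, led by Gkn3, known from arterial endothelium, H2-Q7 was at 13.5 and 16.1 against 36.8 and 43.3 CPM (cluster 7) and at 51.5 and 50.1 against 93.6 and 103 CPM (cluster 9). H2-Q6 ran in parallel, for instance at 13 and 12.9 CPM in WT and 45.6 and 48.5 in the knockout in cluster 5. Cluster 5 made up 15.3% and 16.1% of the endothelial-marked cells in WT and 17% and 16% in the knockout. Cluster 9, with more H2-Q7, made up 6.36% and 5.68% in WT and 5.48% and 6.22% in the knockout. The part of cluster shares in the difference was not tested.

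H2-K1 followed the same order of clusters with a smaller range. It was at 485 and 463 CPM in WT and 516 and 520 in the knockout in cluster 0, and at 812 and 815 against 940 and 938 in cluster 5. In cluster 7 the groups overlapped, at 732 and 738 CPM in WT and 733 and 712 in the knockout. In a separate fit of the 3 unnamed endothelial-marked clusters, 5 of the 10 genes passed the threshold as higher, against 7.69% of all 11066 genes in either direction. These were H2-Q7 (1.21 ± 0.102), H2-Q6 (1.41 ± 0.165), Psmb8 (0.29 ± 0.0519), B2m (0.20 ± 0.0316) and, at the edge of the threshold, H2-K1 (0.10 ± 0.0346).

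**Figure D3:**
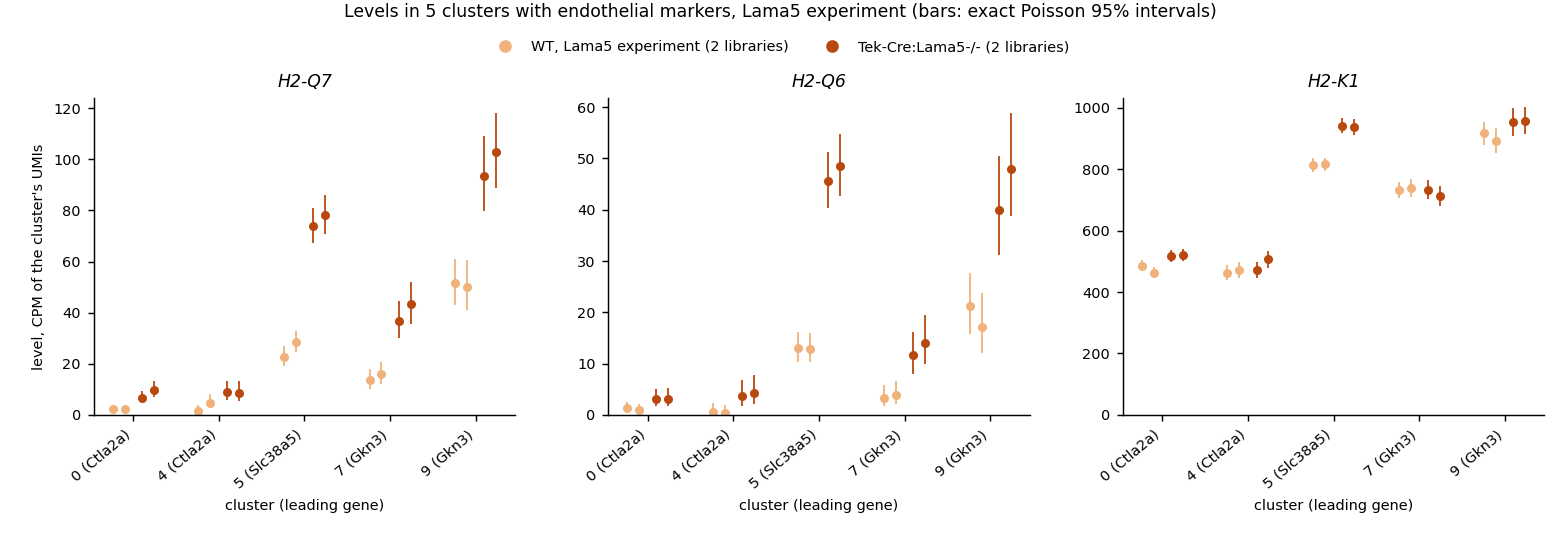
CPM of H2-Q7, H2-Q6 and H2-K1 in 5 clusters with endothelial markers, numbered and with their leading gene, 1 point per library of the Lama5 experiment with its exact Poisson 95% interval (counting error only). H2-Q7 in cluster 5 is at 22.8 and 28.5 CPM in WT and 73.8 and 78.2 in Tek-Cre:Lama5-/-.

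H2-Q7 UMIs were detected in a small share of endothelial-like cells, which was higher in the knockout libraries. Such a share depends on depth and does not count the cells that express the gene. At least 1 H2-Q7 UMI was found in 3.1% and 3.52% of WT cells and in 7.18% and 7.58% of knockout cells, although the median depth was lower in the knockout (2662 and 2487 UMIs per cell, against 3149 and 3027). After thinning each cell to 2000 UMIs the shares were 0.986% and 1.49% in WT and 3.83% and 4.87% in the knockout. In smooth muscle-like cells of the same libraries, which were deeper (3997 to 5428 UMIs), the unthinned share was 0.22% to 0.779%. In cluster 5 the share reached 12.4% and 13% in WT and 25.5% and 27.9% in the knockout, with up to 14 UMIs in a cell. H2-Q6 and H2-Q7 UMIs often lay in the same cells: of 168 and 163 knockout cells with H2-Q6, 98 and 101 also held H2-Q7, and of 74 and 69 WT cells, 39 and 35.

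Class I UMIs were spread over most of the deeper endothelial-like cells. Per cell thinned to 2000 UMIs, the 10 genes together gave a mean of 5.94 and 6.06 UMIs in WT and 6.35 and 6.36 in the knockout, with medians of 5 and 5 against 6 and 6. The 10th and 90th percentiles were 2 and 11 in all 4 libraries. Cells under 2000 UMIs were left out, 632 and 702 in WT and 977 and 1243 in the knockout. Smooth muscle-like cells had a median of 1.

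Markers of other cells in the endothelial-like sums moved with the groups in part. The 7 choroid plexus markers summed to 1.58 to 1.91 CPM in WT and 85.2 to 96.1 in the knockout, the 5 erythroid markers to 316 to 331 and 60 to 63, and the 8 astrocyte markers to 148 to 151 and 118 to 124. The 8 T or NK cell markers summed to 0.0609 and 0.179 CPM in WT and 0.239 and 0.44 in the knockout, with Cd3e at 0 in all libraries. The 6 B cell markers summed to 1.28 to 1.38 CPM in WT and 1.47 to 1.75 in the knockout, the 7 microglial markers to 79.7 to 84 and 106 to 109, the 7 perivascular macrophage markers to 3.17 to 3.47 and 1.1 to 1.83, the 7 monocyte or dendritic markers to 4.25 to 4.63 and 4.77 to 5.79, and the 9 endothelial markers to 20358 to 20443 and 20130 to 20169. Gm42418, a gene that overlaps ribosomal RNA, was at 35413 and 34417 CPM in WT and 66741 and 73806 in the knockout, about as far apart in microglia-like cells (22367 and 20776 against 42399 and 45404). With Gm42418, AY036118, Ttr and the globin genes left out, the same 7 genes were called. Over that and the other alternatives, 15 in all, the log2 fold change ran from 1.48 to 1.90 for H2-Q7 and from 1.78 to 2.09 for H2-Q6. The part of Gm42418 and of the markers in the class I values was not tested. The level of H2-Q7 inside T or NK-like cells, given above, does not show how much of their RNA lay in these sums.

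Other genes of the pathway did not move as a block in the endothelial-like cells. Interferon-stimulated genes, of which 20 were listed and tested, were mostly lower in Tek-Cre:Lama5-/-. In edgeR 15 passed as lower, where 8.67% of all genes did, and 2 (Ifi27 and Ifitm3) as higher, where 10.3% did. Their median log2 fold change was -0.20. DESeq2 called 8 of the 20, a count for which the share of all genes is not given here. Between the WT pools of the 2 experiments, 16 of the 20 passed as lower in the Lama5 experiment and 2 as higher. Their median there was -0.30, and 53.8% of all genes were called in either direction. The antiviral genes Rsad2 (115 and 124 CPM in WT, 92 and 99.6 in the knockout; -0.32 ± 0.0401, edgeR adjusted p = 5.4e-12) and Ifit3 (42.6 and 42.8 against 32.3 and 32.9; -0.39 ± 0.0644, adjusted p = 1.86e-07) fell. So did Rtp4 (-0.40 ± 0.0508, adjusted p = 1.21e-11) and the interferon feedback gene Usp18 (-0.37 ± 0.064, adjusted p = 4.49e-07). Of 4 interferon receptor genes only Ifngr1 passed, as lower (-0.20 ± 0.0596). Among 9 regulators of class I transcription, the NF-kB subunit gene Rela rose by 0.17 ± 0.0451 and Irf2 fell by 0.14 ± 0.0337, while Nlrc5, the class I transactivator, was at 0.29 ± 0.233 and did not pass.

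Of 4 other immunoproteasome and activator genes, Psmb9, the partner of Psmb8 in the immunoproteasome, rose (62.5 and 61.8 CPM in WT, 72.8 and 76.2 in the knockout; 0.26 ± 0.0489, edgeR adjusted p = 3.47e-06), as did Psmb10 (0.12 ± 0.0386). Of 3 constitutive catalytic subunits only Psmb6 rose (0.13 ± 0.032). None of 6 other loading and trimming genes passed in edgeR or DESeq2, and 0 had an unadjusted p under 0.05 in either, with log2 fold changes from -0.05 (Erap1, Pdia3) to 0.10 (Tapbpl). Of 4 other heavy chains tested, H2-T22 rose (0.17 ± 0.0502) and H2-T24, which averaged under 20 CPM, fell (-0.49 ± 0.0921). Fcgrt, the neonatal Fc receptor chain that also pairs with beta 2 microglobulin, fell from 347 and 344 CPM to 285 and 289 (-0.26 ± 0.0252), and the iron regulator Hfe fell by 0.30 ± 0.0857. DESeq2 called none of Psmb10, Psmb6, Rela, Irf2, Ifngr1, H2-T22 and Hfe, and each lost its edgeR call without at least 1 of the 4 libraries. Ifngr1 was at -0.12 without WT replicate 1 and -0.14 without knockout replicate 2. Irf2 was at -0.09 without WT replicate 2 and -0.10 without knockout replicate 2, as was Psmb6 at 0.10 and 0.09. Psmb10 was at 0.10 without WT replicate 2 and 0.09 without knockout replicate 1, and Hfe at -0.28 and -0.27. H2-T22 was at 0.14 without WT replicate 1 and 0.13 without knockout replicate 1, and Rela at 0.14 without the latter. At unscaled totals Rela and H2-T22 were at 0.09, Psmb6 at 0.05 and Psmb10 at 0.04, none of them called. H2-Q10, the heavy chain gene after H2-Q7 on the chromosome, was at 5.67 and 6.82 CPM in WT and 5.5 and 6.21 in the knockout. Among the 92 other genes tested between Tapbp and H2-T23 on chromosome 17, 12 passed as higher and 7 as lower. Of all genes 10.3% passed as higher and 8.67% as lower, so the region lay near the share of all genes. Its median log2 fold change was 0.02, and 1 gene (Gm16279, chosen after its value was seen) passed with a change of at least 1 in log2.

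**Figure D4:**
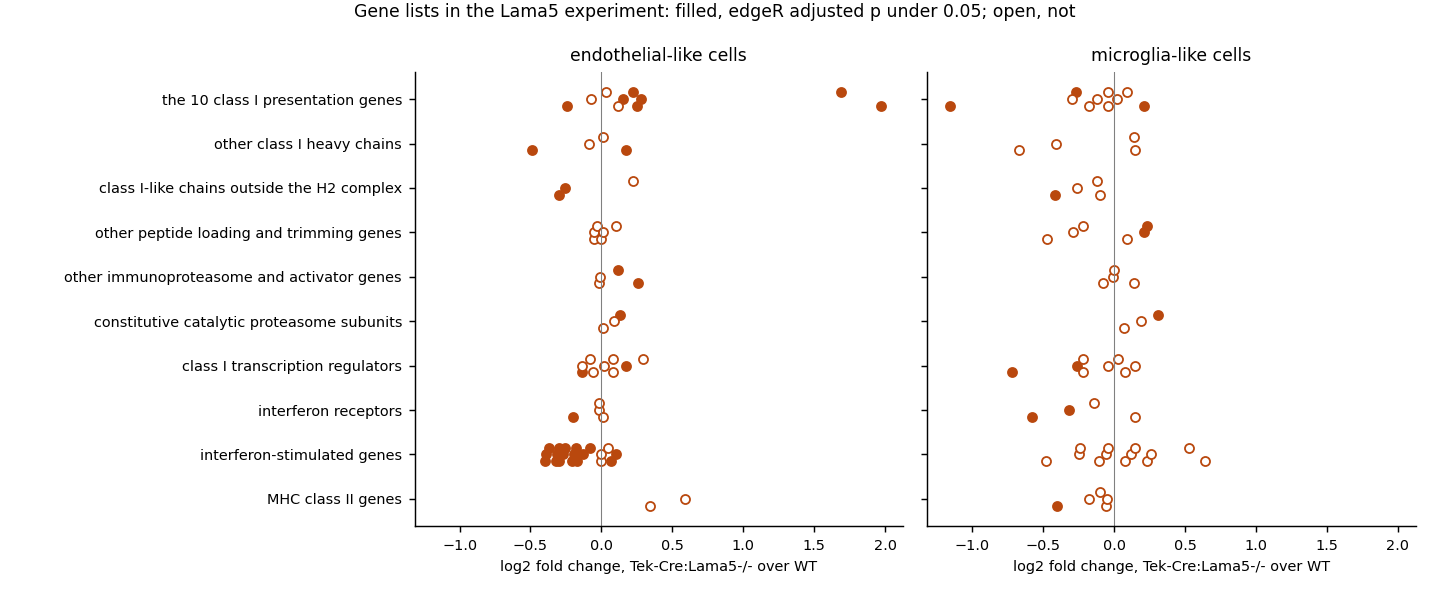
Log2 fold change of every tested gene of each list, Tek-Cre:Lama5-/- over WT, in endothelial-like (left) and microglia-like cells (right); filled points passed an edgeR adjusted p of 0.05. Of the interferon-stimulated genes in endothelial-like cells, 15 of 20 pass as lower, where 8.67% of all genes do.

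In microglia-like cells of the same mice H2-Q7 lay the other way. It was at 22.7 and 19.2 CPM in WT and 10.5 and 8.26 in the knockout, a log2 fold change of -1.16 ± 0.254. H2-Q6 overlapped, at 35 and 31.4 CPM against 29.2 and 32.7. H2-K1 was higher in the knockout, at 700 and 744 against 820 and 853 CPM (0.21 ± 0.0456), and Tapbp lower, at 121 and 124 against 101 and 103 (-0.27 ± 0.0938). Psmb8 was at 140 and 142 CPM in WT and 123 and 128 in the knockout (-0.18 ± 0.0865), and Tap1 at 17.5 and 14.9 against 13.8 and 12.8 (-0.30 ± 0.249). B2m was at 1807 and 1866 CPM against 1786 and 1799 (-0.04 ± 0.0367). H2-D1 (559 and 510 against 536 and 556), H2-Q4 (96 and 102 against 109 and 101) and H2-T23 (132 and 145 against 140 and 129) overlapped.

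Of the 10 genes, 3 passed the threshold in microglia-like cells (H2-K1 higher, H2-Q7 and Tapbp lower), against 14.0% of 9612 genes tested. DESeq2 called only H2-K1, and 5 passed with unscaled totals, which moved the median of all genes to -0.092. Tapbp lost its call in 9 of 13 alternatives, each omission of 1 of the 4 libraries among them (-0.29 to -0.24). Of 13 interferon-stimulated genes tested, 0 were called by edgeR or DESeq2 and 0 had an unadjusted p under 0.05 in either. The regulator Irf1 fell (75.7 and 81.5 CPM in WT, 47.2 and 48.1 in the knockout; -0.72 ± 0.124, edgeR adjusted p = 6.64e-06), and the chaperones Calr (0.23 ± 0.0391) and Canx (0.21 ± 0.058) rose. Canx lost its call in 5 of 13 alternatives: DESeq2, unscaled totals (0.13), doublets kept (0.17), and without replicate 1 of either group (0.20). In the microglia-like sums the 7 perivascular macrophage markers were at 25.6 to 27 CPM in WT and 9.77 to 12.1 in the knockout, the 6 B cell markers at 16.1 to 22.9 and 14.3 to 15.7, and the 7 microglial markers at 13678 to 13806 and 12518 to 12886. The 7 choroid plexus markers were at 0 to 0.473 CPM in WT and 109 to 124 in the knockout, the 5 erythroid markers at 457 to 512 and 89.5 to 91.3, and the 8 astrocyte markers at 224 to 245 and 158 to 177. With Ttr, the globin genes, Gm42418 and AY036118 left out the same 3 genes were called. The part of Gm42418 and of the markers in these values was not tested.

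In pericyte-like, smooth muscle-like and astrocyte-like cells none of the 10 genes was called by edgeR or DESeq2. Only 6, 7 and 5 of the 10 had enough counts to be tested, of which 1, 2 and 1 had an unadjusted p under 0.05 in edgeR and 0 in DESeq2, and 0.524%, 5.19% and 10.5% of all genes were called in these classes. B2m in pericyte-like cells was at 286 and 282 CPM in WT and 358 and 415 in the knockout (0.43 ± 0.14). H2-K1 in astrocyte-like cells was at 180 and 170 CPM in WT and 198 and 248 in the knockout (0.37 ± 0.147). B2m in smooth muscle-like cells was at 142 and 166 CPM against 181 and 170 (0.20 ± 0.0894). The SEs in these classes, which held 153 to 455 cells per library, were several times those in endothelial-like cells.

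The WT pools of the 2 experiments also differed in class I. In endothelial-like cells H2-Q7 was at 63.9 and 58.3 CPM in the WT libraries of the Lama4 experiment and at 10.6 and 13.8 in those of the Lama5 experiment (-2.15 ± 0.0862, Lama5 experiment over Lama4 experiment). The values of Tek-Cre:Lama5-/- (38.6 and 40.5) thus lay between those of the 2 WT groups. H2-Q6 was at 28.1 and 25.4 against 6.22 and 5.62 CPM (-2.01 ± 0.109), H2-Q4 at 133 and 140 against 62.3 and 66.5 (-0.91 ± 0.0453), and H2-K1 at 1058 and 1008 against 600 and 598 (-0.61 ± 0.0279). H2-D1 (-0.59 ± 0.0259), Tap1 (-0.46 ± 0.0717), Tapbp (-0.42 ± 0.0376), Psmb8 (-0.42 ± 0.0358) and H2-T23 (-0.22 ± 0.0311) were also lower in the Lama5 experiment. B2m was the exception (0.16 ± 0.0329), although its CPM overlapped, at 1122 and 1016 against 1049 and 1069. At unscaled totals its value was 0.04 and not called.

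All 10 genes passed the threshold in that comparison, 9 of them lower in the Lama5 experiment, against 53.8% of 12693 genes tested in either direction. Experiment, library preparation and cohort of mice cannot be told apart here. Unscaled totals moved the median of all genes to -0.118. Gm42418 in these endothelial-like libraries was at 7760 and 7442 CPM in the Lama4 experiment and 35413 and 34417 in the Lama5 experiment. The heat-shock gene Hspa1a was at 2648 and 2658 against 895 and 914, and the early response gene Jun at 1983 and 2004 against 5036 and 5106. Their part in the class I differences was not tested. All 10 genes were also called with Gm42418 among the genes left out, a refit that cannot show what these genes mark. Different clusters held most of the class in the 2 experiments: clusters 0, 4 and 5 in the Lama5 experiment and clusters 1 and 14 in the Lama4 experiment. Cluster 14, led by Lcn2 and Lrg1, genes known from acute-phase responses, had 164 and 144 CPM of H2-Q7 in the WT libraries. Cluster 1 had 15.5 and 14.3. Without cluster 14 the difference of H2-Q7 was -0.56, that of H2-Q6 -0.10 and that of H2-T23 -0.05, the last 2 no longer called. In cluster 9, which both experiments shared, H2-Q7 was at 115 and 117 CPM in the WT libraries of the Lama4 experiment and 51.5 and 50.1 in those of the Lama5 experiment.

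In microglia-like cells the WT pools differed gene by gene, and 9 of the 10 genes passed, against 51.1% of 11272 genes tested. H2-Q6 was higher in the Lama5 experiment (35 and 31.4 CPM against 12.9 and 14.2; 1.16 ± 0.163), as were H2-Q4 (0.48 ± 0.0977) and H2-K1 (0.22 ± 0.0459). Tap1 (-0.84 ± 0.174), Psmb8 (-0.75 ± 0.0662), H2-T23 (-0.58 ± 0.073), H2-Q7 (-0.45 ± 0.164), Tapbp (-0.41 ± 0.073) and H2-D1 (-0.18 ± 0.0499) were lower there. Unscaled totals moved the median of all genes to 0.159 and turned H2-D1 to 0.01. Hspa1a in these cells was at 6782 and 6820 CPM in the Lama4 experiment and 405 and 360 in the Lama5 experiment, and its part in the differences was not tested. The class lay mostly in cluster 6 in the Lama5 experiment and in clusters 2 and 18 in the Lama4 experiment.

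In Lama4-/- mice the class I genes of endothelial-like cells stayed near their WT, and those of microglia-like cells were higher for most genes. This comparison has 1 distinct knockout library, so no test was made and intervals are exact Poisson 95% intervals for counting error only. In endothelial-like cells H2-K1 was at 1058 and 1008 CPM in WT and 1021 in Lama4-/- (1003 to 1040), and H2-D1 at 1381 and 1348 against 1352 (1331 to 1373). Both knockout values lay between the WT ones. B2m was below both, at 935 (918 to 953) against 1122 and 1016, and H2-Q4 above both, at 162 (155 to 170) against 133 and 140. H2-Q7 was at 70.2 (65.5 to 75.2) against 63.9 and 58.3 CPM, a log2 ratio of 0.20 that fell to 0.02 without cluster 14, and H2-Q6 at 32.1 (29 to 35.5) against 28.1 and 25.4. In these sums the choroid plexus markers were at 111 to 173 CPM in WT and 1116 in Lama4-/-, and the erythroid markers at 119 to 170 and 35.3; their part was not tested. None of the 10 genes was 0.5 or more in log2 ratio from each WT library, where 0.865% of 6360 genes were.

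In microglia-like cells H2-K1 was at 564 and 563 CPM in WT and 747 in Lama4-/- (728 to 767), a log2 ratio of 0.41. H2-D1 was at 563 and 537 against 728 (709 to 748), and H2-T23 at 196 and 179 against 257 (246 to 269). Tap1 was at 27 and 26.1 against 43.3 (38.7 to 48.3), a log2 ratio of 0.69, and Psmb8 at 216 in both WT libraries against 250 (239 to 262). For these 5 genes the knockout interval lay apart from both WT intervals. The share of all genes with such a gap was not computed, so nothing is read from this count. B2m lay between the WT libraries, at 1563 against 1677 and 1556 CPM, as did H2-Q6 (13.2 against 12.9 and 14.2) and H2-Q4 (70.2 against 58.8 and 70.6). H2-Q7 (31.9 against 25.5 and 27) and Tapbp (164 against 145 and 151) were slightly above both.

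Only Tap1 passed the fold rule in microglia-like cells, where 1.53% of 5565 genes did. The median log2 ratio over the 9 genes with at least 20 CPM was 0.28, beside -0.0045 over all genes, and 8 of the 9 were above 0. All 6 other loading and trimming genes and all 4 other immunoproteasome and activator genes also had ratios above 0, with medians of 0.22 in each list. Per cell thinned to 2000 UMIs, the 10 genes gave a mean of 6.8 and 6.67 UMIs in WT and 7.71 in Lama4-/-. In the sums of this class the monocyte or dendritic markers were at 5.94 to 7.62 CPM in WT and 8.29 in Lama4-/-, the B cell markers at 33.7 to 36 and 40.6, and the perivascular macrophage markers at 15.8 to 16.3 and 12.8. The microglial markers were at 18325 to 18522 CPM in WT and 20513 in Lama4-/-, the choroid plexus markers at 116 to 156 and 1256, and the erythroid markers at 579 to 650 and 360. The part of these markers in the result was not tested. Cluster 18, whose cells had a median of 1122 UMIs, 0.195 of the median of their libraries, gave 113 of 1547 and 103 of 1482 microglia-like cells in WT and 195 of 1361 in Lama4-/-. In cluster 2 alone, which held most of the class, Tap1 was at 26.8 and 25.4 CPM of the cluster total in WT and 43.5 in Lama4-/-, H2-K1 at 548 and 557 against 753, and H2-D1 at 550 and 530 against 734. In pericyte-like, smooth muscle-like and astrocyte-like cells none of the 10 genes passed the fold rule, which 6.86%, 2.55% and 2.46% of all genes passed.

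**Figure D5:**
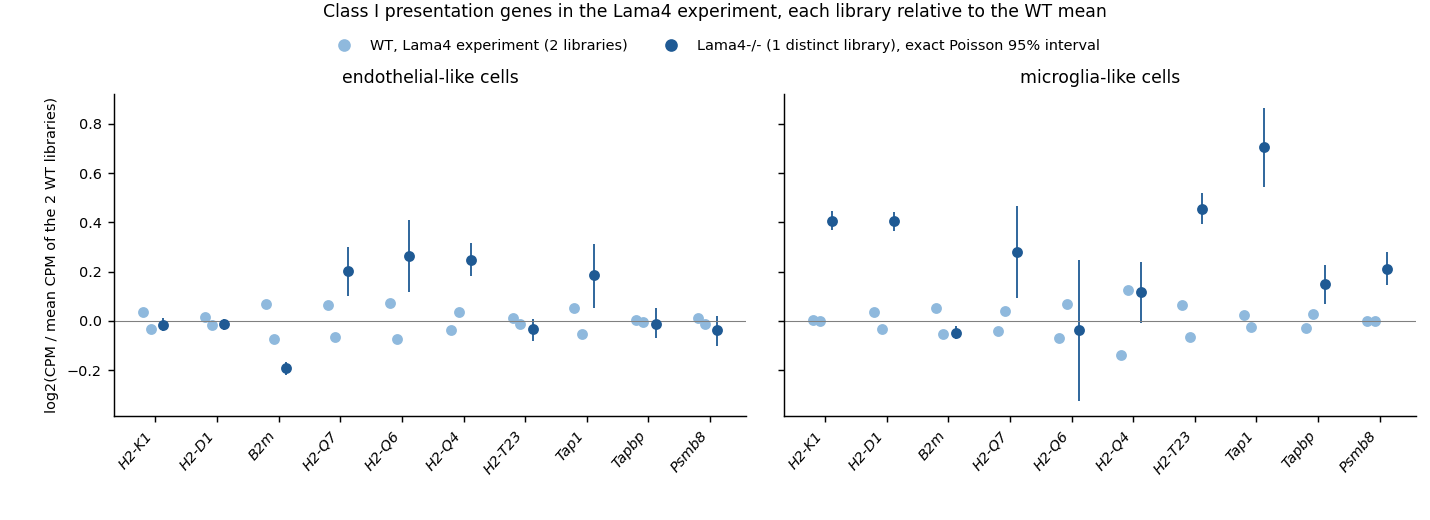
Log2 of the CPM of each library of the Lama4 experiment over the mean of both WT libraries, for endothelial-like (left) and microglia-like cells (right), with exact Poisson 95% intervals on the 1 Lama4-/- library. In microglia-like cells H2-K1, H2-D1, H2-T23, Tap1 and Psmb8 lie above both WT libraries, and in endothelial-like cells B2m lies below and H2-Q4 above them.

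Only genes outside all the gene lists, with a mean of at least 20 CPM, were ranked by likeness to the 10 genes. Over 35 points (5 classes in 7 libraries), those whose log2(CPM + 1) followed the mean of the 10 genes most closely were Lgals9 (Pearson's r = 0.963), Ctsh (0.962), Il10rb (0.961), Sptlc2 (0.954) and Grap (0.951). Among the 10 genes themselves r with that mean ran from 0.861 (H2-Q4 and Tap1) to 0.986 (Psmb8). The points share libraries and cell classes, so these are descriptions without a test.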

How the data were processed

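Single cells of brain cortex were profiled with Chromium 3′ v3 chemistry. Per the file headers the deposited raw UMI counts per gene and cell came from Cell Ranger 3.1.0, and the submitters' processing notes name mm10 and Seurat 3.1. The handling of reads that fit several genes is not given in the sources used here. From these counts, cells with under 500 genes (4352), over 15% mitochondrial UMIs (2355) or a high doublet score (3015) were removed. The rest were clustered (Leiden, resolution 1) with the listed genes left out of the variable genes, and clusters were named from marker lists. Counts were summed per class and library and tested with edgeR 4.0.16 (quasi-likelihood, TMM, Benjamini-Hochberg over all genes tested) in R 4.3.3, a procedure checked on simulated data. CPM use TMM-scaled totals within an experiment for the compared classes and plain totals elsewhere. WT pools were fitted with all 4 libraries scaled together, so CPM ratios differ somewhat from those fold changes.

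Alternatives were DESeq2 1.42.0, unscaled totals, no filter on low counts, a strict cell filter, doublets kept, another clustering resolution, the listed genes kept, totals and fits without Gm42418, AY036118, Ttr and the globin genes (which differed in level between libraries), a replicate block and omission of each library. Adding the unnamed endothelial-marked clusters and leaving out the Lcn2-led cluster were chosen after seeing the data. The 10 genes and the gene lists were chosen with earlier results of these data known. All 10 are named. Of other lists, up to 4 called genes with the largest change and at least 20 CPM are named, and genes outside this rule are named where a count is 5 or fewer. Both libraries of a group come from 1 pool of mice, so p-values measure only the spread between these libraries. The duplicate Lama4-/- sample was left out. UMI totals of 35479306 to 48314458 per library set the precision, and Poisson intervals cover counting error only.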

Additional observations from a re-analysis of the deposited data

Results flagged for a closer look

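Several genes lay on opposite sides of WT under the same kind of contrast, with every library of a knockout on its own side. None of these differences was itself tested, and the share of all genes with such a pattern was not computed. In microglia-like cells of Tek-Cre:Lama5-/- mice, B2m, Psmb8 and Tap1 did not pass in edgeR, and H2-Q7 passed there but not in DESeq2. In Tek-Cre:Lama5-/- mice H2-Q7 was higher than WT in endothelial-like cells (log2 fold change 1.69) and lower in microglia-like cells (-1.16). B2m was higher in endothelial-like (0.22) and slightly lower in microglia-like cells (-0.04). Psmb8 was higher in endothelial-like (0.28) and lower in microglia-like cells (-0.18).

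Between the knockouts, B2m in endothelial-like cells was higher in Tek-Cre:Lama5-/- (0.22) and lower in Lama4-/- (log2 ratio -0.19). In microglia-like cells Tap1 was lower in Tek-Cre:Lama5-/- (-0.30) and higher in Lama4-/- (0.69), and Psmb8 lower (-0.18) and higher (0.21). The Lama4-/- values rest on 1 library.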

How the results depend on the processing

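Of the 10 genes, 6 to 8 passed in endothelial-like cells of Tek-Cre:Lama5-/- in all 15 alternatives. In microglia-like cells 3 passed, 1 with DESeq2, 5 with unscaled totals and 2 without any 1 library. In astrocyte-like cells 1 passed with doublets kept, against 0. Of the other pathway genes in endothelial-like cells 27 passed in edgeR, where 19.0% of all genes did. With DESeq2 11 passed, a count for which the share of all genes is not given here. In Lama4-/-, 1 to 2 genes passed the fold rule in pericyte-like cells and 0 to 1 in smooth muscle-like cells when 1 WT library was left out, against 0. In microglia-like cells 1 to 2 did, and 0 at a log2 limit of 1.

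Among the fitted log2 fold changes, direction reversed for small values only. With unscaled totals H2-T23 was -0.04 in Lama5 endothelial-like cells, H2-D1 -0.06 in Lama5 microglia-like cells and 0.01 between the WT pools in microglia-like cells. Leaving out 1 library in turn gave H2-D1 -0.03 to 0.10 and H2-T23 -0.10 to 0.04 in Lama5 microglia-like cells (0.02 without Tek-Cre:Lama5-/- replicate 2), and B2m -0.03 to 0.09 between the WT pools in microglia-like cells, which was -0.05 with doublets kept and -0.02 without a filter. Log2 ratios of Lama4-/- were flagged as reversed only for genes past the fold rule, and some others changed sign too. In pericyte-like cells Psmb8 (-0.37) ran from -0.52 to 0.10 and Tapbp (-0.14) from -0.17 to 0.16. In astrocyte-like cells H2-D1 (0.01) ran from -0.57 to 0.19. The cause of these shifts was not tested.

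With the replicate block, 7 of the 10 genes passed in Lama5 endothelial-like and 2 in Lama5 microglia-like cells, where Tapbp lost its call. Same-numbered libraries did not deviate together (correlations of -0.00388 to 0.0466 over genes), so they share only a number. Low counts limit H2-Q6 and H2-Q7 outside endothelial and immune cells.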

Other observations

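MHC class II genes, which present peptides from outside the cell, were higher in microglia-like cells of the 1 Lama4-/- library. Cd74, the invariant chain, was at 42.5 and 32.1 CPM in WT and 351 in Lama4-/-. H2-Aa was at 3.9 and 1.29 against 95.2, H2-Ab1 at 11.2 and 7.22 against 145, and H2-Eb1 at 3.16 and 0.792 against 97.3. These 4 of 7 class II genes with at least 20 CPM passed the fold rule. Monocyte or dendritic markers in the same sums were at 5.94 to 7.62 CPM in WT and 8.29 in Lama4-/-, B cell markers at 33.7 to 36 and 40.6, microglial markers at 18325 to 18522 and 20513, choroid plexus markers at 116 to 156 and 1256, and erythroid markers at 579 to 650 and 360; their part in these values was not tested.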
